A study of Mus musculus with 8 samples.

Results

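The 32 genes described here encode the proteins that bring new secretory and membrane proteins into the endoplasmic reticulum (ER) and process them there, removing the signal sequence and adding the first glycan. They were taken by gene symbol from a table of 26520 mouse genes, and all 32 symbols were found. Their polyA RNA was measured in nuclear and cytoplasmic fractions of mouse liver and of the insulinoma line MIN6, which stands in for mouse beta cells. The groups were liver nuclear, liver cytoplasmic, MIN6 nuclear and MIN6 cytoplasmic, with 2 libraries each and 8 in all. No treatment or mutation is given for any group. For liver, nuclear RNA came from purified nuclei after chromatin had been removed, and cytoplasmic RNA from what stayed outside the nuclei on sucrose. MIN6 cells were opened with a mild detergent and their nuclei spun through a sucrose cushion. The study asked which mRNAs are retained in nuclei, so the first question is in which fraction each of these mRNAs lay.

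Most secreted and membrane proteins are made on ribosomes at the ER surface. The signal recognition particle (SRP) binds the signal sequence as it leaves the ribosome and docks at the SRP receptor, which hands the chain to the Sec61 channel. The translocon-associated protein (TRAP) complex sits beside the channel, signal peptidase removes the signal sequence, and oligosaccharyltransferase attaches the preformed glycan to asparagines. Hepatocytes, which secrete the plasma proteins, and beta cells, which secrete insulin, both rely on this route.

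The deposited values are FPKM, fragments relative to transcript length and library size, but their level differed many-fold between libraries. Each library was therefore divided by its median ratio to the geometric mean of 7147 genes above 0 in all 8 libraries, by factors from 0.271 to 6.24. The result is called scaled FPKM, and a ratio between fractions then says where a gene lay relative to the median gene, not how many molecules each fraction held. The smallest steps between low values, taken with annotated transcript lengths, gave a rough depth of 843000 to 1610000 reads per library. A transcript of 2 kb with 3 reads would have had 0.253 to 0.353 scaled FPKM in the MIN6 and liver nuclear libraries and 0.586 and 0.615 in the liver cytoplasmic ones, a floor that covers counting error only. The 4 MIN6 titles and source fields name opposite fractions. Titles were used, and the summed level of the nuclear noncoding RNAs Meg3, Rian, Neat1 and Malat1 was 1709 and 692 scaled FPKM in the libraries titled nuclear, against 84.1 and 38.8 in those titled cytoplasmic. Meg3 made up most of the nuclear sum, at 1518 and 362, and Malat1 was at 6.01 and 21.9 in nuclear and 1.47 and 0.440 in cytoplasmic libraries. None of 8 beta cell markers was at 0 throughout MIN6, where they summed to 3892 and 3472 in nuclear libraries and 15120 and 15180 in cytoplasmic ones. Ins2 made up most of these sums, at 2990 and 2817 nuclear and 11753 and 11428 cytoplasmic. Slc2a2 went the other way, at 0.195 in MIN6 nuclear replicate 1 and 0 in the other MIN6 libraries, and it was called higher in liver in both fractions. The strain field of the liver libraries reads C57BL/6 in one and runs on in number over the others, and it was not used. Nothing says whether replicates were separate animals or cultures, so the p-values measure the spread between these libraries, which may be technical.

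Promoter sequences in RefSeq (build GRCm38.p6), running from 250 bases before to 50 bases after the start of a gene, could be matched for 24 of the 32 genes. Srp19, Ostc, Ssr2, Srp68, Sec11c, Tram1, Spcs3 and Sec61a1 had no entry. The ER stress response elements, through which the factors ATF6 and XBP1 are known to raise ER genes, were searched on both strands. Element II, ATTGG then CCACG after 1 base of any kind, stood in 12 of 32851 promoters, or 0.0365%, and among the 24 genes in Krtcap2. The first element, CCAAT then CCACG after 9 bases of any kind, stood in 39 promoters, or 0.119%, and in those of 0 of the 24. The GC box GGGCGG stood in 35.7% of all promoters and in 17 of the 24 genes, and CCAAT, which on one strand or the other is part of both elements, in 37.4% and 14 of 24. These are unlike units. Shares of all promoters count single entries, while a gene was counted if any of its entries matched, with 26 entries for the 24 genes. A match describes letters in a window and is not a shown binding site. The Krtcap2 window printed below was picked because it held element II. It lies inside the annotated gene (chr3:89245966-89249906), not at the start of that annotation. Printed 5′ to 3′ are the promoters of Krtcap2 (chr3:89246223-89246522, plus strand) with element II in capitals, at base +17 from the RefSeq start, and of the genes with the lowest and the highest liver ratio, Sec61b (chr4:47474411-47474710, plus strand) and Sec61a2 (chr2:5895383-5895682, minus strand) with 1 and 5 GC boxes in capitals, on either strand.
Krtcap2: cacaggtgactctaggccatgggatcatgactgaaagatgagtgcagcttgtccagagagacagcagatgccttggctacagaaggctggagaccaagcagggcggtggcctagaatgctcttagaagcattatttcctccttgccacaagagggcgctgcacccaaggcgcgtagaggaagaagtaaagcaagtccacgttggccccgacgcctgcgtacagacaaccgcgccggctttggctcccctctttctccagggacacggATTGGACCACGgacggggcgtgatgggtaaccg
Sec61b: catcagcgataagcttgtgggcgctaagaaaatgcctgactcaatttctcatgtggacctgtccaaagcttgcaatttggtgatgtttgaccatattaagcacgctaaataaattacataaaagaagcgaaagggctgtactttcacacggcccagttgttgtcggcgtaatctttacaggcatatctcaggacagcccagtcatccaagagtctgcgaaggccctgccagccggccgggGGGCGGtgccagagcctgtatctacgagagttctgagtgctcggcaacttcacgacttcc
Sec61a2: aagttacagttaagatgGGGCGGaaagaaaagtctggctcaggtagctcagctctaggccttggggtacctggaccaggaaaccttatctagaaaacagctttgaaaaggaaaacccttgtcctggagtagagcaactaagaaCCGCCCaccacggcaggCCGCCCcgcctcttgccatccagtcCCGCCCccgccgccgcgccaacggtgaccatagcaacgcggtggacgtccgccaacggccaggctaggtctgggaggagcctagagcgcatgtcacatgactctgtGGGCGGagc
Sec61b and Sec61a2 both belong to the channel, and their mRNAs lay at opposite ends of the fraction ratios of these genes in liver.

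In liver, most of these mRNAs lay toward the cytoplasm relative to the median gene, led by Sec61b, Srp54a, Sec61g and Krtcap2. Ssr1, at a mean below 1 scaled FPKM, was not tested. Of the 31 genes tested, 16 were higher in the cytoplasmic libraries (limma, Benjamini-Hochberg adjusted p under 0.05), 1 was higher in the nuclear libraries and 14 did not pass. Of all 8310 genes tested in liver, 18.3% were called cytoplasmic and 20.8% nuclear. The median log2 ratio, nuclear over cytoplasmic, was −1.07 over the 31 genes and 0.09 over all genes tested. Better expressed genes lay lower in liver: the median was −0.11 over 3128 genes with a mean of 5 to 50 scaled FPKM. It was −0.57 over 2035 genes of at least 10. With a minimum mean of 5, 18 of 23 members were called cytoplasmic, against 33.8% of all genes, with medians of −1.26 and −0.21. Both nuclear libraries lay below both cytoplasmic ones for 25 of the 31, against 34.4% of all genes, and above both for Sec61a2 and Srp68, against 38.2% of all genes. Sec63, Ssr2, Srprb and Stt3b overlapped. With values as deposited, where the median of all genes was −1.64, 30 of 32 were called cytoplasmic against 50.2% of all genes, and 0 nuclear against 2.93%. Toward the cytoplasm, 8 of 30 were called with libraries scaled to an equal sum (12.7% of all genes), 9 of 31 with scaling on genes of at least 10 (14.0%) and 7 of 31 with a pseudocount of 0.1 (13.2%). Sec61a1, Sec62, Tram1, Ssr4, Srp14, Rpn2, Ostc and Stt3a lost their call both with an equal sum and with a pseudocount of 0.1, and Sec61g with the pseudocount. These calls need both nuclear libraries: without liver nuclear replicate 1, and also without replicate 2, 0 of the 31 and 0 of all genes passed in limma, while 18 and 16 of the 31 had an unadjusted p under 0.05, against 33.7% and 35.1% of all genes. Without cytoplasmic replicate 1, and also without replicate 2, 8 were past the threshold toward the cytoplasm, against 13.7% and 13.1% of all genes. A library left alone in its group is assumed in such fits to vary like the other group.

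The liver fractions also differed in mRNAs that mark cell types. Nuclear libraries had 2387 and 3125 scaled FPKM of summed hepatocyte markers and cytoplasmic libraries 15630 and 17690, with 7 of 8 markers called cytoplasmic. Endothelial markers summed to 38.4 and 45.4 in nuclear libraries and 8.61 and 10.5 in cytoplasmic ones, with 1 of 4 called nuclear. Stab2 alone was at 25.8 and 26.5 in the nuclear libraries. Macrophage and leukocyte markers summed to 108 and 116 in nuclear libraries and 30.0 and 53.0 in cytoplasmic ones, with 2 of 5 called nuclear. Clec4f alone was at 71.6 and 56.8 in the nuclear libraries. No marker of these 3 lists was at 0 throughout liver. Stellate and stromal markers summed to 18.7 and 15.5 in nuclear libraries and 16.8 and 20.2 in cytoplasmic ones, with 0 of 2 tested called. Cholangiocyte markers summed to 1.60 and 1.98 nuclear and 0.984 and 0.900 cytoplasmic, and the red cell gene Hba-a1 was called cytoplasmic. The part of cell types in the liver ratios below was not tested, and in bulk RNA fewer cells of a type and less RNA per cell cannot be told apart. Neither can be told apart from where a marker mRNA lies within its cell, which the fraction ratio also measures. Beta cell markers in MIN6 cells also summed higher in cytoplasmic libraries, at 15120 and 15180 against 3892 and 3472 in nuclear ones.

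In MIN6 cells, too, most of these mRNAs lay toward the cytoplasm relative to the median gene, led by Sec61b, Dad1, Sec61g and Ssr4. All 32 genes were tested: 19 were higher in the cytoplasmic libraries, 2 (Sec61a2 and Srp68) in the nuclear ones, and 11 did not pass (limma, Benjamini-Hochberg adjusted p under 0.05). Of all 8200 genes tested in MIN6, 17.8% were called cytoplasmic and 27.4% nuclear. The median log2 ratio was −1.04 over the 32 genes and 0.24 over all genes tested. It was 0.62 over 3251 genes with a mean of 5 to 50 scaled FPKM and 0.66 over 1941 genes of at least 10. With a minimum mean of 5, 17 of 27 members were called cytoplasmic, against 20.7% of all genes. Both nuclear libraries lay below both cytoplasmic ones for 26 genes, against 33.6% of all genes, and above both for Sec61a2, Srp68 and Srp72, against 44.2%. Sec63, Sec11c and Stt3b overlapped. With values as deposited, where the median of all genes was −0.76, 28 of 30 genes tested were called cytoplasmic against 46.1% of all genes, and 0 nuclear against 11.8%. Sec61a1, Tram1, Ssr2, Srp68, Spcs3 and Rpn1 lost their call with a pseudocount of 0.1, while Sec62, Ssr1, Srp19, Srpr, Rpn2, Ddost and Stt3a were called cytoplasmic with libraries scaled to an equal sum, when 26.7% of all genes were. Without MIN6 cytoplasmic replicate 1, and also without replicate 2, 0 of the 32 genes passed in limma, 13 and 12 had an unadjusted p under 0.05, against 35.7% and 34.2% of all genes, and 8 and 71 of all genes were called cytoplasmic. Without nuclear replicate 1 there were 13 cytoplasmic calls, against 14.7% of all genes, and without nuclear replicate 2 there were 14, against 15.3%.

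Across the tissues, 12 of the 31 genes tested in both were called cytoplasmic in both, against 10.0% of the 6220 genes tested in both. They were Sec61a1, Sec61b, Sec61g, Tram1, Ssr3, Ssr4, Srp9, Srp14, Srp54a, Dad1, Ostc and Krtcap2, so that every one of the 5 groups of roles but signal peptidase was represented. Of genes nuclear in both tissues, 15.2% of all genes, Sec61a2 was the 1 member, and with values as deposited it was called in neither. Among settings that kept all libraries, including 3 other scalings, Sec61b, Ssr3, Srp9, Srp54a and Dad1 were called cytoplasmic in every setting in both tissues. The share of all genes called in every such setting was not computed, so these members cannot be set against it. Fits that left out 1 library, in which these calls were lost, are not among these settings.

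**Figure D1:**
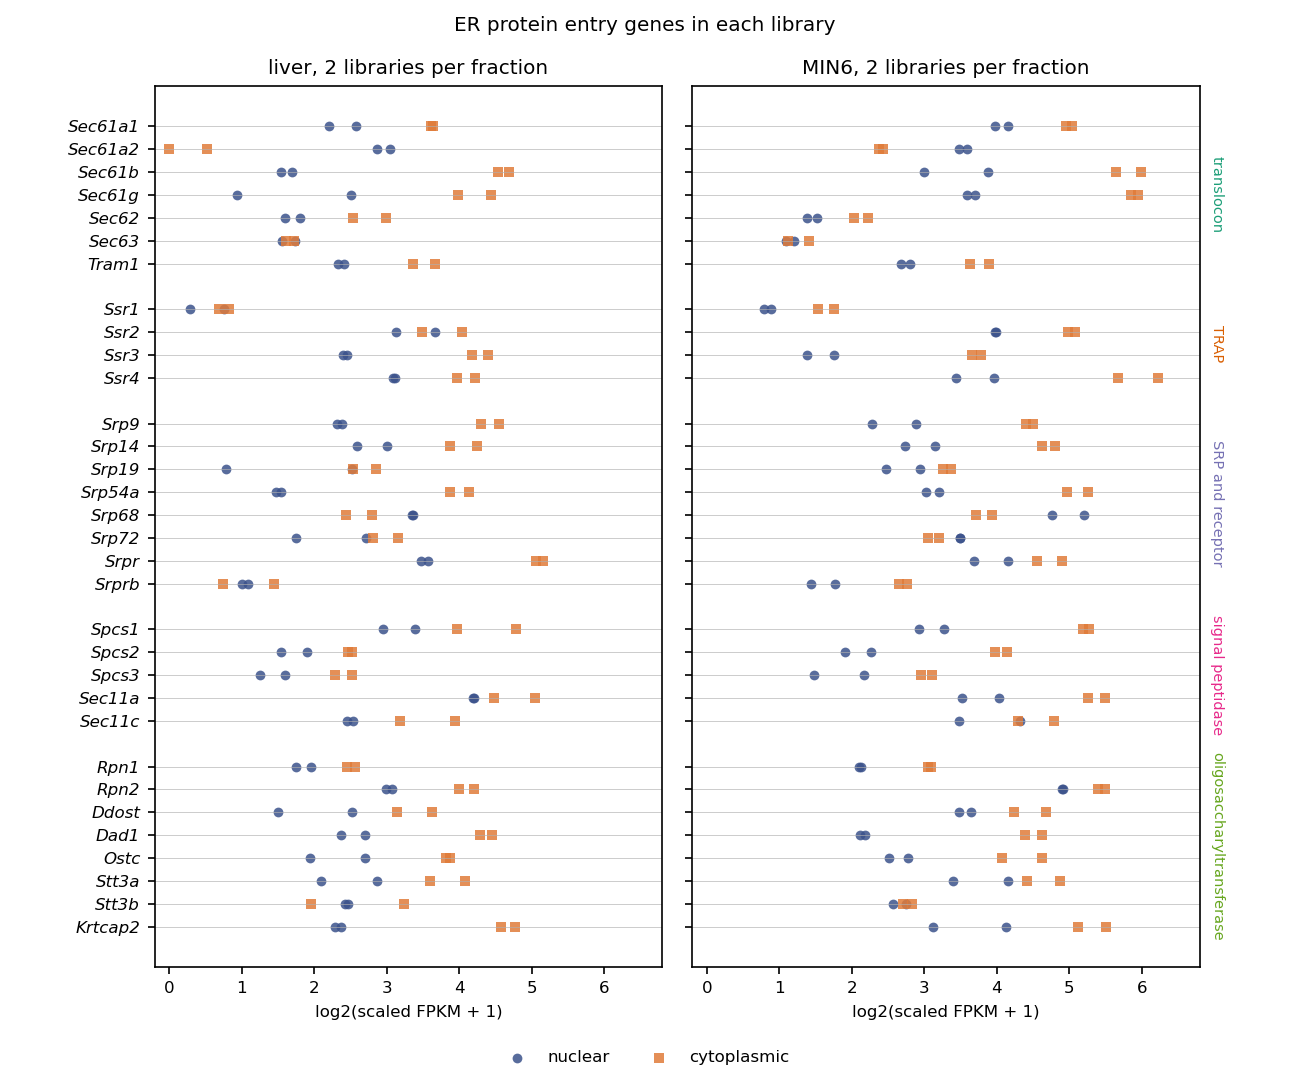
Level of each of the 32 genes in each library, as log2(scaled FPKM + 1), in liver (left) and MIN6 (right), with nuclear libraries as circles and cytoplasmic libraries as squares. Most squares lie to the right of the circles of the same gene, while Sec61a2 and Srp68 have both circles to the right in both tissues on this scaling.

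**Figure D2:**
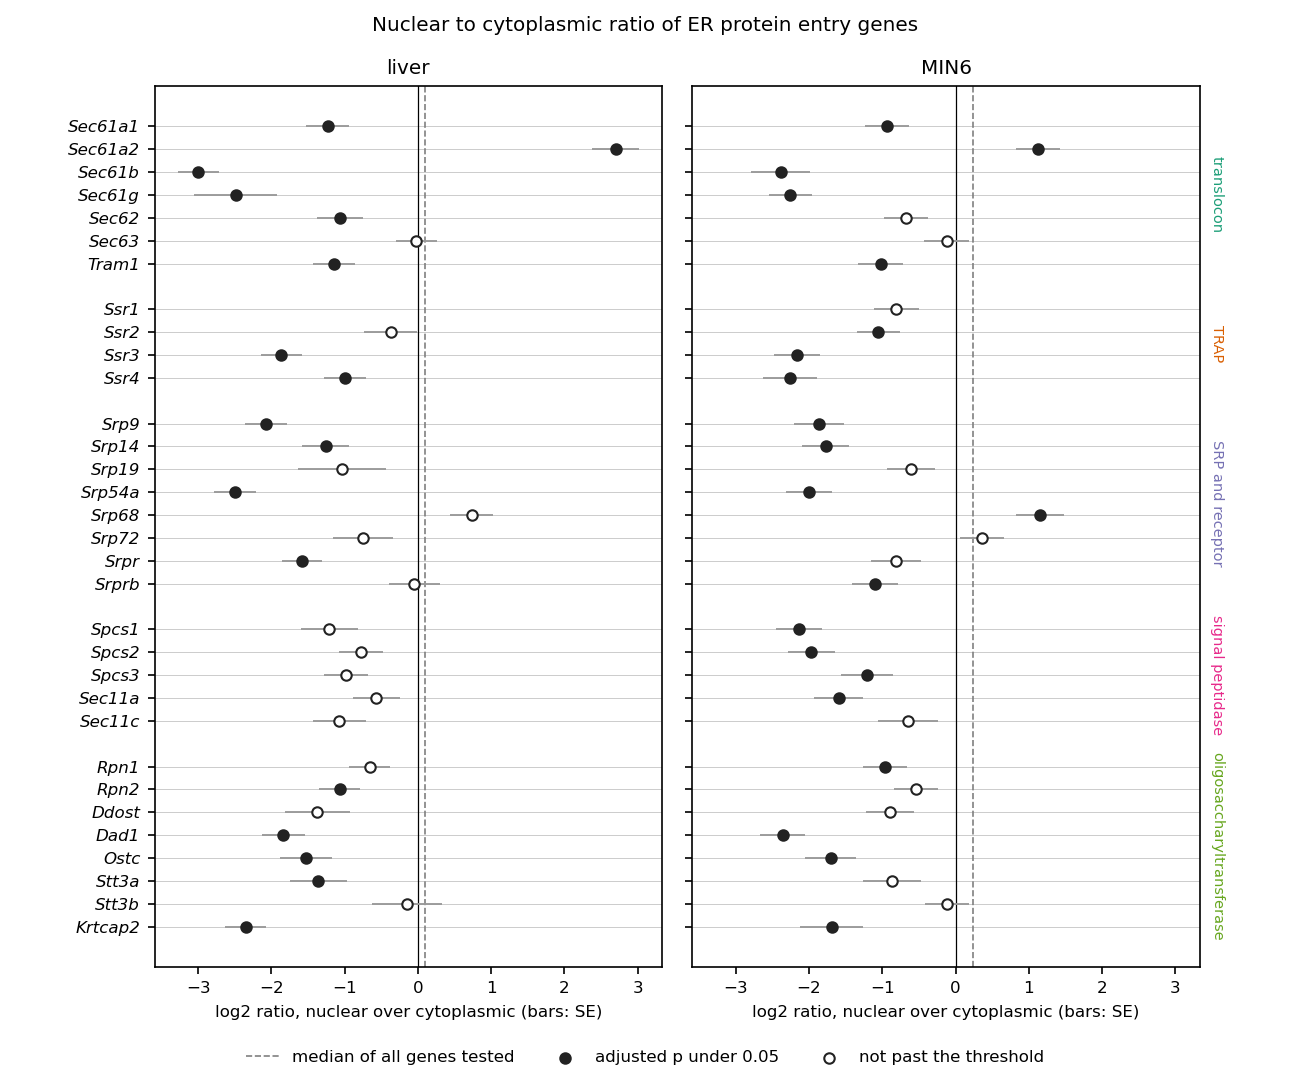
Log2 ratio, nuclear over cytoplasmic, of each gene with its SE from limma, in liver and MIN6 after median scaling, where filled points had an adjusted p under 0.05 and the dashed line is the median of all genes tested (0.09 in liver, 0.24 in MIN6). Filled points lie left of 0 except Sec61a2 in both tissues and Srp68 in MIN6, whose MIN6 values turn to −0.045 and −0.13 with values as deposited.

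Within the channel, the small subunits had lower ratios than the large one, a difference between genes that was not tested. Gene positions are those of GENCODE M21 on GRCm38. Sec61b, the β subunit (ENSMUSG00000053317, chr4:47474658-47483242, plus strand), was at 2.23 and 1.91 scaled FPKM in liver nuclear libraries, against 22.2 and 24.8 in cytoplasmic ones, a log2 ratio of −2.996 (SE 0.28, limma adjusted p = 0.00394). In MIN6 cells Sec61b was at 13.7 and 6.99 nuclear and 49.2 and 62.8 cytoplasmic, a log2 ratio of −2.39 (SE 0.40, limma adjusted p = 0.00821). The fractions did not overlap in either tissue, and the ratio stood at percentile 1.95 of genes tested in liver and 2.18 in MIN6. The liver nuclear values of Sec61b rest on an estimated 5.7 and 4.6 reads. Sec61g, the γ subunit, was at 0.916 and 4.70 in liver nuclear libraries, against 20.7 and 14.9 in cytoplasmic ones, a log2 ratio of −2.49 (SE 0.57, limma adjusted p = 0.0226). The fractions did not overlap, although the 2 nuclear libraries differed several-fold and rest on an estimated 3.1 and 15.1 reads of Sec61g. In MIN6 cells Sec61g was at 12.01 and 11.03 nuclear and 60.5 and 56.9 cytoplasmic, a log2 ratio of −2.25 (SE 0.30, limma adjusted p = 0.00542). With a pseudocount of 0.1 the liver ratio of Sec61g was −2.998 with a limma adjusted p of 0.072.

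The α subunit, which forms the pore, is encoded by a pair of paralogs whose ratios lay on opposite sides of 0 after median scaling. The difference between these paralogs was not tested. Sec61a1 (ENSMUSG00000030082, chr6:88503579-88518905, minus strand) was at 4.98 and 3.61 scaled FPKM in liver nuclear libraries, against 11.4 and 11.2 in cytoplasmic ones, a log2 ratio of −1.23 (SE 0.30, limma adjusted p = 0.0262). In MIN6 cells Sec61a1 was at 14.7 and 16.8 nuclear and 31.95 and 30.1 cytoplasmic, a log2 ratio of −0.94 (SE 0.30, limma adjusted p = 0.0473). Cytoplasmic values were the higher ones in both tissues, with no overlap. The liver ratio did not pass with libraries scaled to an equal sum, at −0.77 (adjusted p = 0.071, limma), and neither passed with a pseudocount of 0.1 (adjusted p = 0.053 in liver and 0.0929 in MIN6). Its paralog Sec61a2 (ENSMUSG00000025816, chr2:5870987-5895432, minus strand) was at 7.24 and 6.30 scaled FPKM in liver nuclear libraries and at 0.428 and 0 in cytoplasmic ones, where replicate 2 listed it at 0. The liver log2 ratio was 2.70 (SE 0.32, limma adjusted p = 0.00485), at percentile 96.1 of genes tested. Both cytoplasmic values lie under the 3-read floor given above, so this ratio depends on the pseudocount and is no bound: it was 4.90 with 0.1 and 1.18 with 5, and 2.01 (adjusted p = 0.0693, limma) with values as deposited. In MIN6 cells Sec61a2 was at 10.995 and 10.1 nuclear and 4.41 and 4.17 cytoplasmic, all well above the floor, a log2 ratio of 1.12 (SE 0.30, limma adjusted p = 0.0269) that turned to −0.045 with values as deposited and was 0.66 (adjusted p = 0.124, limma) with libraries scaled to an equal sum. Nuclear values were the higher ones in both tissues after median scaling, with no overlap. Of the exon bases of Sec61a2, 19.9% are shared with Nudt5 on the other strand, and whether counting used strand is not given in the sources used here. Nudt5 was at 4.91 and 1.65 nuclear and 7.61 and 0.836 cytoplasmic in liver, and at 15.4 and 11.5 nuclear and 15.8 and 20.5 cytoplasmic in MIN6, with log2 ratios of −0.0082 (limma adjusted p = 0.995) and −0.41 (adjusted p = 0.333). Whether reads of one were counted for the other was not tested.

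The remaining members of the translocon had ratios between −1.14 and −0.02 in liver and between −1.02 and −0.12 in MIN6. Tram1, a membrane protein that contacts the entering chain, was called cytoplasmic in both tissues, at −1.14 in liver and −1.02 in MIN6. It did not pass in liver with an equal sum, at −0.68 (adjusted p = 0.114, limma), nor with a pseudocount of 0.1 (adjusted p = 0.0551 in liver and 0.0691 in MIN6). Sec62 and Sec63 help proteins that enter after their synthesis. Sec62 was called cytoplasmic in liver at −1.06 (limma adjusted p = 0.0463), while its MIN6 value of −0.68 did not pass. Sec63 was at −0.022 in liver and −0.12 in MIN6, passed in neither, and turned to 0.31 in liver with libraries scaled to an equal sum.

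Of the TRAP subunits, Ssr3 and Ssr4 were called cytoplasmic in both tissues, Ssr2 in MIN6, and Ssr1 in neither. Ssr4, the δ subunit (ENSMUSG00000002014, chrX:73787028-73790830, plus strand), was at 7.63 and 7.50 scaled FPKM in liver nuclear libraries, against 14.6 and 17.7 in cytoplasmic ones, a log2 ratio of −0.998 (SE 0.28, limma adjusted p = 0.0414). In MIN6 cells Ssr4 was at 9.79 and 14.5 nuclear and 49.98 and 73.7 cytoplasmic, a log2 ratio of −2.25 (SE 0.37, limma adjusted p = 0.00776), and no gene of the complex averaged higher over the 8 libraries. The liver value fell short with libraries scaled to an equal sum, at −0.52 (adjusted p = 0.191, limma). Ssr3, the γ subunit, was at 4.27 and 4.49 in liver nuclear libraries, against 17.1 and 20.1 in cytoplasmic ones, a log2 ratio of −1.86 (SE 0.28, limma adjusted p = 0.00796). For MIN6 the Ssr3 levels were 2.36 and 1.60 nuclear and 11.6 and 12.8 cytoplasmic, a log2 ratio of −2.16 (SE 0.32, limma adjusted p = 0.00621). The fractions of Ssr3 and Ssr4 did not overlap in either tissue. Ssr1, the α subunit and the lowest of the 4, was at 0.220 and 0.680 nuclear and 0.606 and 0.768 cytoplasmic in liver, where it was not tested. In MIN6 cells it was at 0.730 and 0.849 nuclear and 1.90 and 2.38 cytoplasmic, a log2 ratio of −0.81 (SE 0.30, limma adjusted p = 0.0731), so the fractions separated without passing. Ssr2, the β subunit, was called in MIN6 at −1.05, and its liver libraries overlapped at −0.37. Of the exon bases of Ssr2, 12.8% are shared with Gm10704, which was called cytoplasmic in both tissues.

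The SRP was split within itself. Srp9 and Srp14, which form the Alu domain that slows elongation, and Srp54a, the GTPase that binds the signal sequence, were called cytoplasmic in both tissues. Srp68, a large subunit that binds the SRP RNA together with Srp72, was higher in both nuclear libraries than in either cytoplasmic one in both tissues after median scaling, but not in the mean of either tissue as deposited. Srp54a (ENSMUSG00000073079, chr12:55080262-55115367, plus strand) was at 1.78 and 1.91 scaled FPKM in liver nuclear libraries, against 13.7 and 16.5 in cytoplasmic ones, a log2 ratio of −2.49 (SE 0.28, limma adjusted p = 0.00471). In MIN6 cells Srp54a was at 7.11 and 8.17 nuclear and 37.2 and 30.4 cytoplasmic, a log2 ratio of −2.003 (SE 0.31, limma adjusted p = 0.00694). No library of one fraction reached the range of the other. A near-identical copy, Srp54b, was listed at most at 1.85 scaled FPKM, so reads may have been split between them and the level of Srp54a is uncertain. Srp9 was at 4.22 and 3.95 in liver nuclear libraries, against 18.6 and 22.4 in cytoplasmic ones, a log2 ratio of −2.08 (SE 0.28, limma adjusted p = 0.00635). Its MIN6 levels were 6.41 and 3.85 nuclear and 20.1 and 21.6 cytoplasmic, a log2 ratio of −1.86 (SE 0.35, limma adjusted p = 0.0103). Again no library of Srp9 overlapped with the other fraction. Of the exon bases of Srp9, 14.1% are shared with Gm17968 on the other strand. Srp14 was at −1.26 in liver and −1.77 in MIN6.

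Srp68 (ENSMUSG00000020780, chr11:116245166-116274217, minus strand) was at 9.30 and 9.21 scaled FPKM in liver nuclear libraries, against 4.44 and 5.96 in cytoplasmic ones, a log2 ratio of 0.74 (SE 0.29, limma adjusted p = 0.0999) that did not pass. In MIN6 cells Srp68 was at 35.8 and 26.2 nuclear and 12.1 and 14.3 cytoplasmic, a log2 ratio of 1.16 (SE 0.33, limma adjusted p = 0.0332). Nuclear values were the higher ones in both tissues, but with values as deposited the ratio was −1.45 in liver and −0.13 in MIN6. Srp68 rests on an estimated 27.6 to 471 reads per library. Its partner Srp72 was at −0.75 in liver and 0.36 in MIN6, neither of which passed, and the MIN6 value turned to −0.15 with libraries scaled to an equal sum and to −0.76 with values as deposited. Srp19, which helps the particle assemble, did not pass in liver (−1.04) or MIN6 (−0.61), and one of its liver nuclear values rests on an estimated 2.3 reads.

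Each subunit of the SRP receptor was called cytoplasmic in 1 tissue. Srpr, the α subunit, which had the highest mean of the SRP genes, was at 10.2 and 10.9 scaled FPKM in liver nuclear libraries, against 32.4 and 34.7 in cytoplasmic ones, a log2 ratio of −1.58 (SE 0.28, limma adjusted p = 0.011). In MIN6 cells Srpr was at 11.8 and 16.8 nuclear and 22.5 and 28.8 cytoplasmic, a log2 ratio of −0.81 (SE 0.34, limma adjusted p = 0.0976). The fractions did not overlap in either tissue, and the MIN6 value did not pass. Srprb, the β subunit that anchors the receptor, was at 1.01 and 1.12 in liver nuclear libraries and 1.71 and 0.679 in cytoplasmic ones, a log2 ratio of −0.048 (SE 0.34, limma adjusted p = 0.922). Its MIN6 levels were 1.71 and 2.40 nuclear and 5.28 and 5.77 cytoplasmic, a log2 ratio of −1.10 (SE 0.31, limma adjusted p = 0.0331). Srprb thus overlapped between fractions in liver and separated in MIN6. It shares 20.7% of its exon bases with the predicted gene Gm20425, which was called cytoplasmic in MIN6.

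Of the 5 signal peptidase subunits, 0 passed in liver, where 4 had an unadjusted p under 0.05 in limma against 50.2% of all genes, and 4 were called cytoplasmic in MIN6. Spcs1, an accessory subunit, was at 9.49 and 6.71 scaled FPKM in liver nuclear libraries, against 14.7 and 26.6 in cytoplasmic ones, a log2 ratio of −1.21 (SE 0.39, limma adjusted p = 0.059). In MIN6 cells Spcs1 was at 6.57 and 8.62 nuclear and 37.5 and 35.6 cytoplasmic, a log2 ratio of −2.14 (SE 0.31, limma adjusted p = 0.00621). The fractions did not overlap in either tissue. Spcs2, another accessory subunit, was at 1.90 and 2.75 nuclear and 4.54 and 4.74 cytoplasmic in liver, a log2 ratio of −0.78 (SE 0.30, limma adjusted p = 0.0896). Its MIN6 levels were 2.76 and 3.82 nuclear and 16.6 and 14.7 cytoplasmic, a log2 ratio of −1.97 (SE 0.32, limma adjusted p = 0.00746). Spcs2 also separated in both tissues. Spcs3 was at −0.99 in liver and −1.21 in MIN6, and passed in MIN6. Of the exon bases of Spcs1, 16.3% are shared with Glt8d1, which was called nuclear in both tissues.

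The catalytic subunit comes in a pair of paralogs. Sec11a was at 17.5 and 17.2 scaled FPKM in liver nuclear libraries, against 21.4 and 32.2 in cytoplasmic ones, a log2 ratio of −0.57 (SE 0.32, limma adjusted p = 0.212). In MIN6 cells Sec11a was at 10.5 and 15.4 nuclear and 43.9 and 37.4 cytoplasmic, a log2 ratio of −1.60 (SE 0.34, limma adjusted p = 0.0142). Sec11c was at 4.48 and 4.80 nuclear and 14.4 and 8.09 cytoplasmic in liver, a log2 ratio of −1.07 (SE 0.36, limma adjusted p = 0.0648). The fractions of both genes separated in liver without passing. Sec11c levels in MIN6 were 18.9 and 10.1 nuclear and 18.6 and 26.7 cytoplasmic, a log2 ratio of −0.65 (SE 0.41, limma adjusted p = 0.232), so its MIN6 libraries overlapped while those of Sec11a did not.

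In oligosaccharyltransferase the small subunits Dad1, Ostc and Krtcap2 were called cytoplasmic in both tissues. Dad1, a subunit of every form of the enzyme (ENSMUSG00000022174, chr14:54235479-54254104, minus strand), was at 4.17 and 5.47 scaled FPKM in liver nuclear libraries, against 18.5 and 20.9 in cytoplasmic ones, a log2 ratio of −1.84 (SE 0.29, limma adjusted p = 0.00918). In MIN6 cells Dad1 was at 3.31 and 3.54 nuclear and 20.01 and 23.6 cytoplasmic, a log2 ratio of −2.36 (SE 0.30, limma adjusted p = 0.00516). Its fractions lay wide apart in both tissues. Krtcap2 (ENSMUSG00000042747, chr3:89245966-89249906, plus strand), found in the form that acts beside the channel and the gene with element II in a promoter window, was at 3.87 and 4.15 in liver nuclear libraries, against 22.8 and 26.3 in cytoplasmic ones, a log2 ratio of −2.35 (SE 0.28, limma adjusted p = 0.0049). Its MIN6 levels were 16.5 and 7.68 nuclear and 33.8 and 44.5 cytoplasmic, a log2 ratio of −1.69 (SE 0.43, limma adjusted p = 0.0245). Nuclear libraries were the lower ones throughout, though the MIN6 nuclear pair differed more than the liver pair. Krtcap2 shares 15.7% of its exon bases with Trim46, which was listed at 0 in all liver libraries and was called nuclear in MIN6. Ostc, the other subunit of that form, was at −1.53 in liver and −1.71 in MIN6.

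Of the larger subunits, Rpn2 had the highest mean of the enzyme, at 7.44 and 6.92 scaled FPKM in liver nuclear libraries, against 14.9 and 17.5 in cytoplasmic ones, a log2 ratio of −1.07 (SE 0.28, limma adjusted p = 0.0334). In MIN6 cells Rpn2 was at 28.8 and 29.1 nuclear and 43.99 and 41.3 cytoplasmic, a log2 ratio of −0.54 (SE 0.30, limma adjusted p = 0.176). The fractions did not overlap in either tissue, and the MIN6 value did not pass. With libraries scaled to an equal sum the call moved to MIN6, at −1.09 (adjusted p = 0.0333, limma), and the liver value was −0.59 (adjusted p = 0.139). Rpn1, at −0.66 in liver and −0.96 in MIN6, passed in MIN6, and Ddost, at −1.37 and −0.89, passed in neither. The catalytic paralogs are Stt3a, which acts as the chain enters, and Stt3b, which acts later on sites that were skipped. Stt3a was at 3.26 and 6.29 nuclear and 11.2 and 15.9 cytoplasmic in liver, a log2 ratio of −1.36 (SE 0.39, limma adjusted p = 0.042), and at 16.7 and 9.56 nuclear and 20.3 and 28.3 cytoplasmic in MIN6, a log2 ratio of −0.87 (SE 0.39, limma adjusted p = 0.114). Stt3b was at 4.38 and 4.52 nuclear and 2.88 and 8.41 cytoplasmic in liver, a log2 ratio of −0.15 (SE 0.48, limma adjusted p = 0.825), and at 5.68 and 4.90 nuclear and 5.50 and 6.11 cytoplasmic in MIN6, a log2 ratio of −0.12 (SE 0.30, limma adjusted p = 0.768). Stt3a thus separated in both tissues and Stt3b overlapped in both, and the liver value of Stt3b turned to 0.26 with libraries scaled to an equal sum. With libraries scaled to an equal sum, Stt3a was at −0.88 (adjusted p = 0.138, limma) in liver and −1.41 (adjusted p = 0.0386) in MIN6. The difference between the paralogs was not tested.

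Whether the fraction ratio itself differed between tissues was tested in all 8 libraries. Of the 31 genes, 0 passed in limma, 3 had an unadjusted p under 0.05 against 24.1% of all 6220 genes, of which 0.418% were called higher in liver and 0.804% lower. Sec61a2 came nearest, with a ratio higher in liver than in MIN6 by 1.57 (SE 0.44, limma adjusted p = 0.0918). It rests on the liver cytoplasmic values under the floor, and was 0.43 (adjusted p = 0.207, limma) with a pseudocount of 5, 3.62 (adjusted p = 0.143) with 0.1, and 2.06 (adjusted p = 0.0241) with an equal sum. Ssr4 followed at 1.26 (SE 0.48, limma adjusted p = 0.154) and Spcs2 at 1.19 (SE 0.44, limma adjusted p = 0.144), and the lowest was Srp72 at −1.11 (SE 0.53, limma adjusted p = 0.233). With a pseudocount of 5 Spcs2 passed at 0.92 (adjusted p = 0.0482, limma). The median difference, liver minus MIN6, was −0.12 over the 31 genes and −0.17 over all genes. The signal peptidase genes had a median of 0.93 and the SRP genes of −0.42, with no gene of either group past the threshold. A p that misses the threshold does not show that the tissues were alike. The count was not stable to scaling: 8 genes were lower in liver with values as deposited, when 26.6% of all genes were lower and 0.677% higher, while 5 were higher in liver with libraries scaled to an equal sum, when 678 of 6090 genes were. With values as deposited the difference for Spcs2 turned to −0.29.

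**Figure D3:**
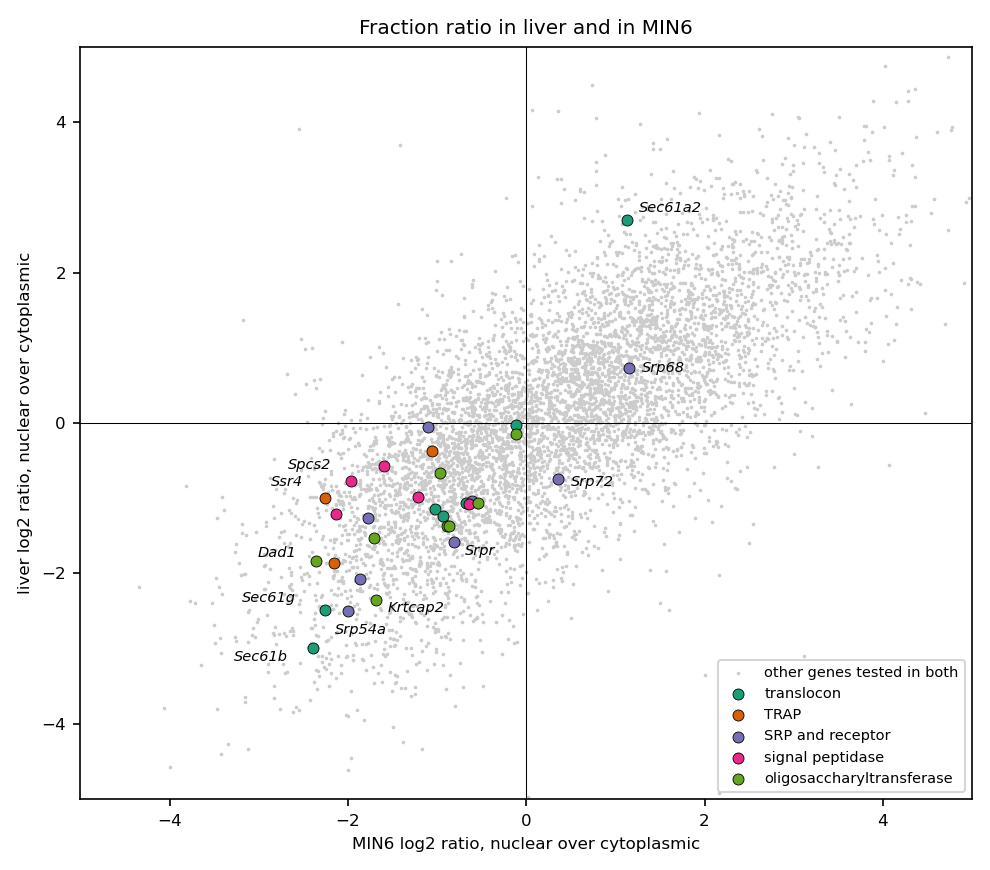
Log2 ratio, nuclear over cytoplasmic, in liver (vertical) against MIN6 (horizontal) for 31 genes of ER protein entry, coloured by role, and other genes tested in both tissues (grey), with 37 genes outside the axes. Most coloured points lie in the lower left, Sec61a2 (2.70 in liver, 1.12 in MIN6) and Srp68 (0.74 and 1.16) lie in the upper right after median scaling, and with values as deposited Srp68 is at −1.45 and −0.13 and Sec61a2 in MIN6 at −0.045.

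Set against the other genes of each library, the entry machinery ranked higher in cytoplasmic than in nuclear RNA, and higher in MIN6 than in liver. The median percentile of the 32 genes among 10187 genes was 62.0 and 62.5 in liver nuclear libraries and 83.2 and 84.0 in liver cytoplasmic ones. In MIN6 it was 70.0 and 77.2 in nuclear libraries and 92.6 and 94.3 in cytoplasmic ones. The highest in any library was Ssr4, at 73.7 scaled FPKM in MIN6 cytoplasmic replicate 2. Levels of liver and MIN6 were compared within each fraction, where tissue and fractionation protocol cannot be told apart. In the cytoplasmic libraries 12 of the 32 genes were lower in liver and 0 higher (limma, Benjamini-Hochberg adjusted p under 0.05), against 18.5% of all 9169 genes lower and 21.8% higher, and 17 had an unadjusted p under 0.05, against 48.1% of all genes. With values as deposited, 29 were higher in liver and 0 lower, when 74.3% of all genes were higher and 4.06% lower. With libraries scaled to an equal sum, 28 were lower in liver, when 4062 of 9292 genes were. In the nuclear libraries 11 were lower in liver and 1, Ssr3, was higher, against 24.0% and 22.9% of all genes. With values as deposited, 11 were higher and 0 lower there, when 38.1% of all genes were higher and 3.32% lower.

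The genes with the lowest p in the cytoplasmic comparison came from every role. Sec61a2, whose liver cytoplasmic values lay under the floor, was lower in liver by a log2 difference of −2.15 (SE 0.27, limma adjusted p = 0.000555), which kept its direction as deposited at −1.07 (limma adjusted p = 0.138). Ssr4 differed by −1.85 (SE 0.31, limma adjusted p = 0.00236), Spcs2 by −1.56 (SE 0.27, limma adjusted p = 0.0027) and Rpn2 by −1.35 (SE 0.23, limma adjusted p = 0.00301). For Sec61a1 the difference was −1.38 (SE 0.25, limma adjusted p = 0.00374) and for Srprb −1.61 (SE 0.30, limma adjusted p = 0.00429). The liver and MIN6 values of these genes, printed above, did not overlap, with liver the lower. With values as deposited, liver was the higher for Ssr4 (0.96), Spcs2 (1.07), Rpn2 (1.46), Sec61a1 (1.40) and Srprb (0.48). These 6 genes stayed past the threshold whichever library was left out. Fewer genes were called lower in liver, among the members and among all genes, without liver cytoplasmic replicate 1, MIN6 cytoplasmic replicate 1 or MIN6 cytoplasmic replicate 2. The median difference over the members tested, −0.73 with all libraries, was −0.59, −0.82 and −0.59 in these fits. Over all genes it was −0.0096 with all libraries, and −0.024, 0 and 0 in these fits.

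In the nuclear libraries Rpn2 had the lowest p, with liver lower by a log2 difference of −1.87 (SE 0.23, limma adjusted p = 0.000551). Sec61a1 differed by −1.67 (SE 0.25, limma adjusted p = 0.00135), Srp54a by −1.60 (SE 0.25, limma adjusted p = 0.00166) and Srp68 by −1.62 (SE 0.28, limma adjusted p = 0.00237). Sec61b differed by −1.82 (SE 0.34, limma adjusted p = 0.00373) and Sec61g by −1.92 (SE 0.48, limma adjusted p = 0.0142). Ssr3 was the exception, higher in liver by 0.86 (SE 0.25, limma adjusted p = 0.0266) and by 0.57 in the cytoplasmic libraries, where it did not pass. As deposited, Rpn2 was at −0.14, Sec61a1 at −0.021, Srp54a at −0.13, Sec61b at −0.28, Sec61g at −0.38 and Srp68 at 0.11, none of which passed. Ssr3 passed as deposited too, at 1.79 (adjusted p = 0.00272, limma). With median scaling, Rpn2, Sec61a1, Srp54a, Srp68 and Sec61b stayed past the threshold whichever library was left out. Without MIN6 nuclear replicate 1, and also without liver nuclear replicate 2, fewer genes were called lower in liver, among the 32 and among all genes. The median difference over the 32 genes, −0.48 with all libraries, was −0.56 in both of these fits. Over all genes it was −0.11 with all libraries, and −0.0028 and −0.16 in these fits. Ssr3 did not pass without liver nuclear replicate 1, liver nuclear replicate 2 or MIN6 nuclear replicate 2.

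**Figure D4:**
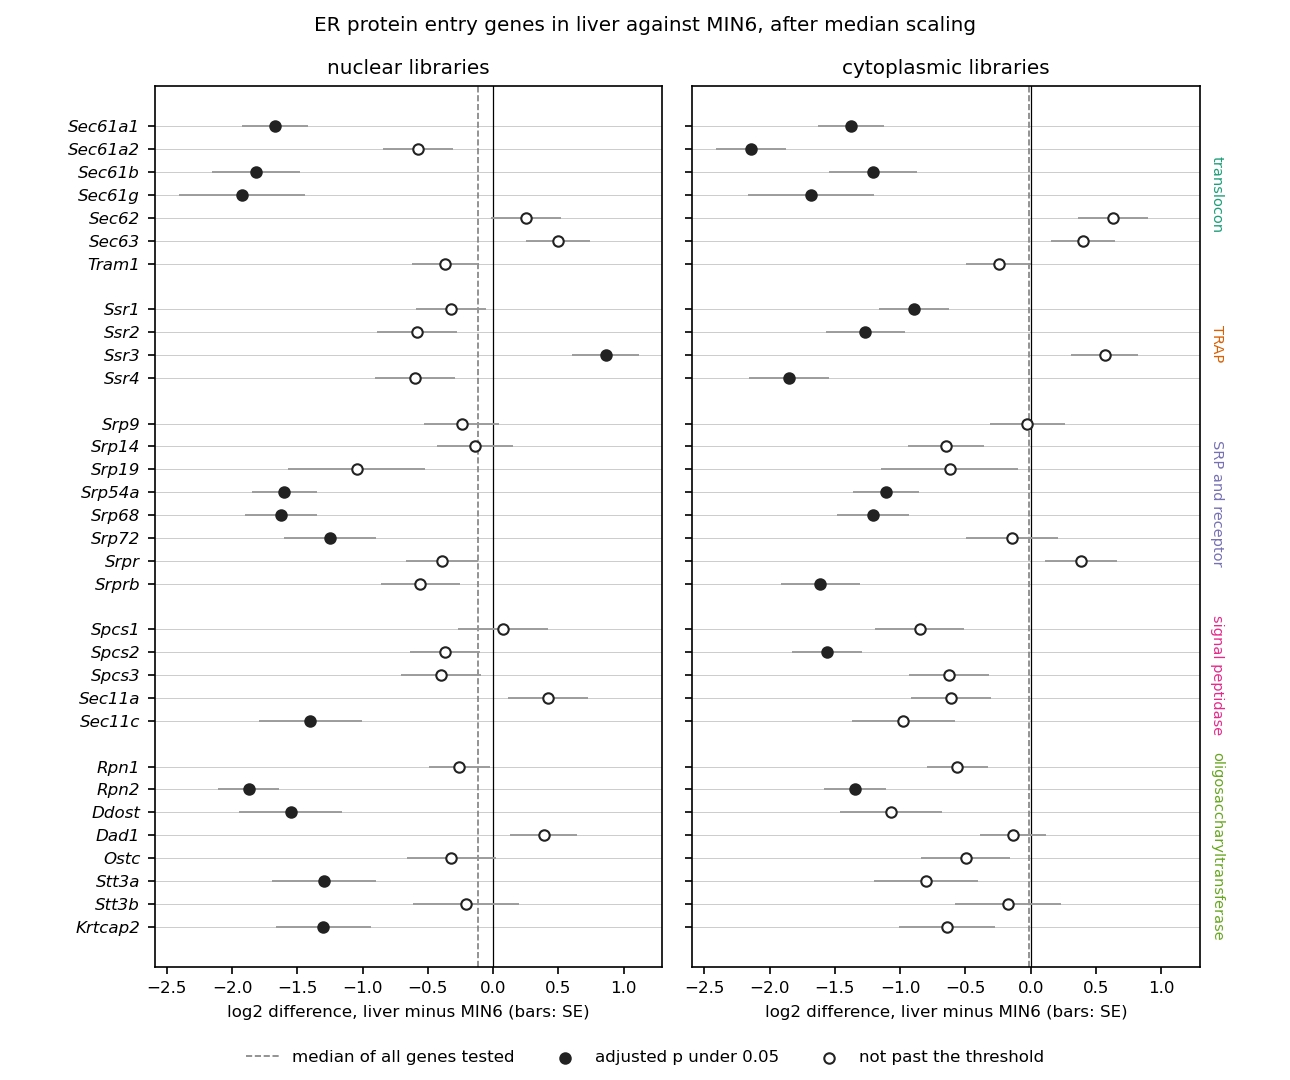
Log2 difference, liver minus MIN6, of each gene with its SE from limma, in nuclear (left) and cytoplasmic (right) libraries after median scaling, with filled points at an adjusted p under 0.05 and the median of all genes dashed. Filled points lie left of 0 except Ssr3 in the nuclear libraries. As deposited, 29 genes were called higher in liver cytoplasm, when 74.3% of all genes were. Srp68, Srp72, Sec11c, Ddost, Stt3a and Krtcap2 then turned above 0 in the nuclear libraries.

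Genes of the entry machinery with few exons lay mostly farther toward the cytoplasm. Across the genes, the Spearman correlation of the log2 ratio with the median number of annotated exons (GENCODE M21) was 0.47 in liver (31 genes) and 0.74 in MIN6 (32 genes). Over all protein-coding genes tested it was 0.34 in liver (8017 genes) and 0.44 in MIN6 (7921 genes). These are descriptions across genes that share their libraries, and genes are not independent replicates. Dad1 and Srp9, with a median of 2.5 exons, and Sec61b, Sec61g, Srp14, Spcs1 and Ostc, with 4, all had log2 ratios below −1 in both tissues, while Sec63, with 21, stood near 0 in both. Srp54a, with 15.5 exons and a ratio of −2.49 in liver and −2.003 in MIN6, stood apart from Srp68, which has the same number. With transcript length the correlation was 0.31 in liver and 0.45 in MIN6 for these genes, and 0.28 and 0.21 for all genes. Of transcripts under 1200 bases, the 13 members had a median ratio of −1.21 in liver and −1.77 in MIN6, against −0.90 and −0.75 for all genes of that length. Longer members had −1.07 (18 genes) and −0.87 (19 genes), against 0.21 and 0.40 for all longer genes.

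**Figure D5:**
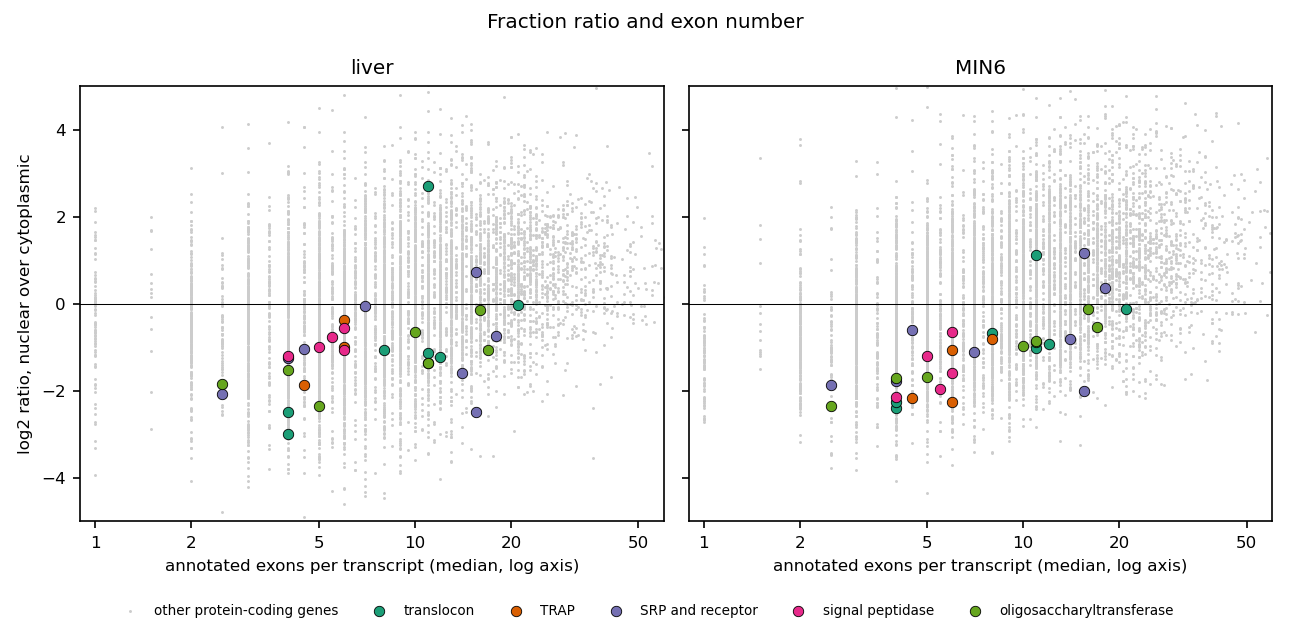
Log2 ratio, nuclear over cytoplasmic, against the median number of annotated exons per transcript (log axis) in liver and MIN6, for the ER protein entry genes by role and other protein-coding genes (grey). In MIN6 the members run from ratios near −2 at few exons to values near 0 at many, with a rank correlation of 0.74, and Srp54a lies low at 15.5 exons.

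Lists of neighbouring pathways, whose members were named by their lowest and highest ratios, are given beside all genes tested, of which 20.8% were called nuclear and 18.3% cytoplasmic in liver and 27.4% and 17.8% in MIN6. Among other entry genes, 1 of 4 tested was called cytoplasmic in liver and 3 of 5 in MIN6, with 0 nuclear in either. The lowest was Ost4, the smallest oligosaccharyltransferase subunit, called cytoplasmic at −2.53 in liver and −2.37 in MIN6, and the highest was Tmem208, at 1.35 and 0.05, which passed in neither. Among genes for insertion of tail-anchored proteins, the chaperone Bag6 was called nuclear at 1.09 in liver and 2.34 in MIN6, and Ubl4 cytoplasmic at −0.95 and −1.48, with 3 of 5 past in neither direction in each tissue. Of the 8 genes tested of the ER membrane protein complex, an insertase, 1 was called nuclear and 0 cytoplasmic in liver, where values ran from −1.22 (Emc10) to 1.07 (Emc1). In MIN6 0 were called nuclear and 4 cytoplasmic, with values from −1.58 (Emc6) to 0.33 (Emc2). The 17 genes tested for synthesis of the dolichol-linked glycan, which oligosaccharyltransferase transfers, were called in both directions in each tissue. In liver 5 were called nuclear and 2 cytoplasmic, from −1.59 (Alg14) to 1.60 (Alg12), with a median of 0.29 against 0.09 for all genes. In MIN6 2 were called nuclear and 5 cytoplasmic, from −3.03 (Dpm3, a subunit of dolichol phosphate mannose synthase) to 2.26 (the glucosyltransferase Alg8), with a median of 0.32 against 0.24 for all genes. The medians of the glycan synthesis genes thus lay above those of the members, −1.07 in liver and −1.04 in MIN6. The list of other entry genes had medians of −0.80 in liver and −1.43 in MIN6, and the ER membrane protein complex of −0.28 and −0.75. Medians below those of all genes were thus not particular to the members. For insertion of tail-anchored proteins the medians were 0.0097 in liver and 0.52 in MIN6.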

How the data were processed

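The deposited table gives polyA RNA levels of 26520 genes as FPKM in 8 libraries, made by the authors with TopHat and Cuffdiff on build mm10, per the submitters' processing notes. Which versions, annotation and strand setting they used is not given in the sources used here. Library scale factors differed up to 23.1 times, so each library was divided by its median ratio to the geometric mean over 7147 genes, and any overall difference in RNA amount between fractions is removed by this step. Comparisons used limma 3.58.1 (R 4.3.3) on log2(scaled FPKM + 1), two-sided, over genes with a mean of at least 1, with Benjamini-Hochberg adjustment over all genes tested and a call at an adjusted p under 0.05. Fold changes of low genes are understated on this scale. Each fraction comparison was fitted on the 4 libraries of its tissue, and the tissue comparisons on all 8. The scripts were tested on simulated data. Annotation came from GENCODE M21, which held 25522 of the gene IDs.

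All 32 members are accounted for. Full statistics are given, per role, for the member with the highest mean and those with the lowest and highest MIN6 ratio, for up to 6 members with the lowest adjusted p in each other comparison, and for paralog pairs. Genes that share exons with them were added after their values were seen. The members and lists were chosen with earlier results of these data known. Alternatives were 3 other scalings (deposited values, an equal sum, and genes of at least 10), pseudocounts of 0.1 and 5, no filter or a minimum of 5, a trended robust fit, a replicate block, 1 fit of all libraries, and leaving out each library. Replicate numbers carried no shared source in the labels. The depth of about 843000 to 1610000 reads limits low genes: 4 and 3 members in liver nuclear libraries and 3 and 3 in liver cytoplasmic ones had under 10 estimated reads.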

Additional observations from a re-analysis of the deposited data

How the results depend on the processing

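Counts depended on the scaling and on single libraries, with 2 libraries a group and shallow depth limiting low genes; the cause of each change was not tested. Median scaling sets the typical gene near 0, whereas with deposited values the median of all genes was −1.64 in liver and −0.76 in MIN6, and with an equal sum 0.48 and −0.26. Shares of all genes tested that were called the same way are in brackets. In liver, cytoplasmic calls were 16 (18.3%), against 30 with deposited values (50.2%) and 8 with an equal sum (12.7%). They were 9 with scaling on genes of at least 10 (14.0%) and 7 with a pseudocount of 0.1 (13.2%). Nuclear calls in liver were 1 (20.8%), against 0 with deposited values (2.93%) and 2 with an equal sum (30.6%). They were 2 with scaling on genes of at least 10 (27.6%) and 0 with a minimum of 5 (25.3%). In MIN6, nuclear calls were 2 (27.4%), against 0 with deposited values (11.8%), 0 with an equal sum (17.1%) and 1 with a pseudocount of 0.1 (24.7%). For the difference between tissues, 0 calls became 8 lower in liver with deposited values (26.6%). Higher in liver were 5 with an equal sum (11.1%), 1 with scaling on genes of at least 10 (2.64%) and 1 with a pseudocount of 5 (2.04%). In cytoplasmic libraries, 12 lower (18.5%) and 0 higher (21.8%) became 0 lower (4.06%) and 29 higher (74.3%) with deposited values. Lower were 28 with an equal sum (43.7%) and 19 with scaling on genes of at least 10 (23.2%). With a pseudocount of 5, 1 was higher (19.8%). In nuclear libraries, 11 lower (24.0%) and 1 higher (22.9%) became 0 lower (3.32%) and 11 higher (38.1%) with deposited values. Leaving out 1 library could move the counts of calls, among members and among all genes, except for members in the difference between tissues. Over these fits the member median ratio ran from −1.21 to −1.02 in liver, against 0.014 to 0.14 over all genes. In MIN6 it ran from −1.13 to −0.999, against 0.10 to 0.33. The member median difference, liver minus MIN6, ran from −0.86 to −0.59 in cytoplasmic libraries, against −0.042 to 0. In nuclear ones it ran from −0.56 to −0.35, against −0.17 to −0.0028. The lowest counts came without liver nuclear replicate 1 or 2, and without MIN6 cytoplasmic replicate 1 or 2, for the fractions.

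Some log2 values changed sign. In MIN6 with deposited values, Sec61a2 was −0.045, Srp68 −0.13 and Srp72 −0.76, Srp72 was −0.15 with an equal sum, and Sec63 was 0.025 without MIN6 cytoplasmic replicate 2. In liver, Srp68 was −1.45 with deposited values, and Sec63 0.31, Ssr2 0.10 and Stt3b 0.26 with an equal sum. With scaling on genes of at least 10, Sec63 was 0.22, Srprb 0.14 and Stt3b 0.15. Over the fits that left out 1 library, Sec63 ran from −0.11 to 0.068, above 0 without liver nuclear replicate 1 or liver cytoplasmic replicate 1, and Stt3b from −0.79 to 0.49, above 0 without liver cytoplasmic replicate 2. Between tissues with deposited values, the difference of ratios for Spcs2 was −0.29. The cytoplasmic differences were then 1.40 for Sec61a1, 1.62 for Sec61b, 1.13 for Sec61g, 0.87 for Ssr1, 1.51 for Ssr2, 0.96 for Ssr4, 1.69 for Srp54a, 1.44 for Srp68, 0.48 for Srprb, 1.07 for Spcs2 and 1.46 for Rpn2. The nuclear ones were 0.11 for Srp68, 0.32 for Srp72, 0.21 for Sec11c, 0.037 for Ddost, 0.28 for Stt3a and 0.26 for Krtcap2.

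The labels do not say whether the replicate numbers pair the samples. The deviations of same-numbered libraries correlated at 0.061 in liver and 0.039 in MIN6, which cannot show whether those libraries shared a source. The replicate number was also fitted as a block, with shares of all genes called the same way in brackets. In liver, 13 members were called cytoplasmic (17.6%) and 1 nuclear (20.1%), and in MIN6 16 (17.6%) and 2 (28%). For the difference between tissues, 0 were higher in liver (0.0643%) and 0 lower (0.113%). In cytoplasmic libraries 12 were lower in liver (18.2%) and 0 higher (21.6%). In nuclear ones 11 were lower (23.9%) and 1 higher (22.9%).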
